A study of Mus musculus with 16 samples.

Results

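Tumour-bearing mouse lungs that had received 4 Gy of radiation were compared with lungs that had received 0 Gy, over both antibodies given. The comparison takes 5 libraries at 4 Gy and 5 at 0 Gy, 10 of the 16 RNA sequencing libraries of the series, chosen by the dose in their titles. The 4 Gy libraries were 3 with an antibody against PD-1 and 2 with IgG, and the 0 Gy libraries were 2 with anti-PD-1 and 3 with IgG. The change with dose was taken within each antibody and then averaged, so that the unequal antibody mix of the doses does not enter it. All mice were C57BL/6 and carried lung tumours of HKP1, a line from a mouse lung adenocarcinoma that lacks p53. The lungs were collected 24 to 48 h after irradiation, and 3 to 4 mice were pooled per library. The labels do not say that the pools came from separate experiments, and the p-values therefore reflect only how much these pools varied. The series title names the question of radiation, the airway's club cells (marked by Scgb1a1) and checkpoint blockade.

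Ionising radiation breaks DNA, and cells with working p53 answer by inducing its targets, among them the cell cycle inhibitor p21 and several genes of growth arrest, apoptosis and repair. Irradiated tissue is also known to make interferons, which act through STAT and IRF factors to switch on antiviral genes, antigen presentation and the PD-1 ligand PD-L1. In the lung, club cells secrete secretoglobins into the small airways, and type 2 cells of the alveolus make surfactant.

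Depth and library quality differed. One read was worth 0.0155 to 0.0418 CPM at 4 Gy and 0.0188 to 0.0334 CPM at 0 Gy, where a smaller worth means a deeper library. CPM are reads scaled to a common library total. Replicates 2 and 3 with anti-PD-1 at 4 Gy, called the 2 outlying libraries here, had no reads for 6108 and 5330 of the 30095 listed genes, against 2285 to 2518 in the other 4 Gy libraries and 2543 to 3863 at 0 Gy. A principal component analysis put them at -81.5 and -98.3 on its leading axis, away from all others of the series (-46.8 to 51.9). Mitochondrially encoded transcripts took 5.72, 4.37 and 4.14% of the CPM with anti-PD-1 and 4.99 and 6.54% with IgG at 4 Gy, against 1.44 and 3.73% with anti-PD-1 and 1.01, 2.37 and 2.16% with IgG at 0 Gy. Every 4 Gy library was above every 0 Gy library, and the difference was 3.04 percentage points (exact two-sided permutation test within antibodies, p = 0.01, the smallest its 100 arrangements can give). Haemoglobin transcripts took 0.588 to 3.31% at 4 Gy and 0.216 to 2.4% at 0 Gy. The sample numbers in the column headers ran from 26 to 30 at 4 Gy and from 13 to 17 at 0 Gy, so if these mark separate preparations, preparation and dose cannot be told apart.

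In the fit of all 16 libraries, 3076 of 17546 genes tested passed at 4 Gy against 0 Gy (17.5%; limma on log2 of CPM + 0.5, adjusted p under 0.05), 935 higher (5.33%) and 2141 lower (12.2%). Over all genes tested the log2 fold change had a median of -0.14. It was -0.05 with quantile normalization, which gave 1343 higher and 1061 lower, and -0.03 with equal library medians, which gave 1275 and 798, so the excess of falls turned round with the scaling. The number of calls rested on single libraries. In the fit of the 10 compared libraries alone 131 genes passed, 91 higher (0.519%) and 40 lower (0.228%). With IgG 4 Gy replicate 2 left out it was 97 genes, 73 higher (0.416%) and 24 lower (0.137%). With the 2 outlying libraries left out it was 91 genes, 58 higher (0.331%) and 33 lower (0.188%). The calls of these 3 fits, named the strict fits below, were all among the 3076. Leaving out the 4 Gy anti-PD-1 replicates in turn gave 5747 (replicate 1), 1513 (replicate 2) and 997 (replicate 3), and leaving out the first IgG one gave 1425. At 0 Gy, omitting an anti-PD-1 replicate gave 1101 (replicate 1) or 611 (replicate 2), and omitting an IgG one gave 1615, 1590 or 5275 (replicates 1, 2 and 3). The plot of calls per fit shows these counts by direction.

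**Figure D1:**
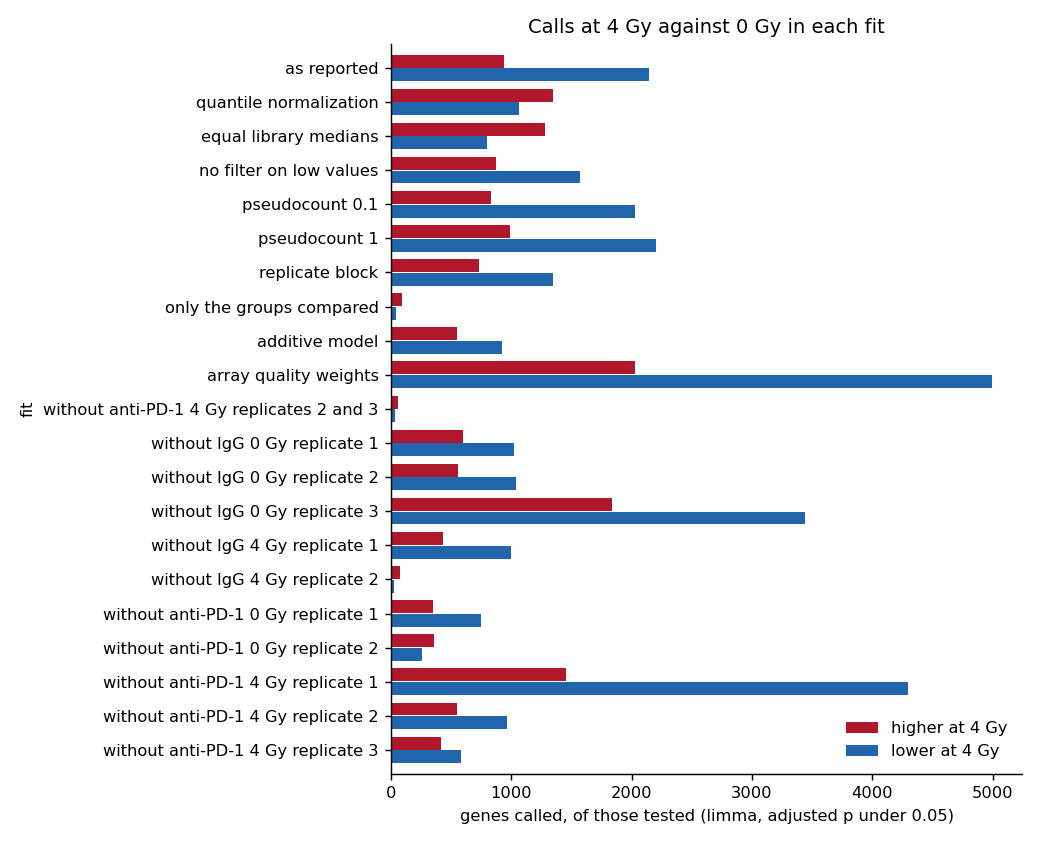
Number of genes called at 4 Gy against 0 Gy (x axis, genes with adjusted p under 0.05 in limma) in the fit reported and in each of 20 alternatives (y axis), red bars for genes higher and blue bars for genes lower at 4 Gy. The count runs from 91 without anti-PD-1 4 Gy replicates 2 and 3 to 7029 with array quality weights, and the share of falls changes with the scaling.

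A set of 55 genes passed in all 21 fits, 38 higher and 17 lower at 4 Gy. The set was chosen after the values were seen and describes the genes whose call did not rest on 1 library or setting. In all 38 genes that rose, the 4 Gy libraries were all above the 0 Gy libraries, as in 303 of the genes tested (1.73%). In 12 of the 17 that fell, every 4 Gy library lay below every 0 Gy library, as in 742 (4.23%). Choosing genes that pass in every fit favours those whose doses do not overlap, so these counts are descriptions. Among the rises were p53 targets (Cdkn1a, Phlda3, Gdf15), interferon-induced genes (Isg15, Ifit3, Ifit3b, Ifit1, Ifi44, Usp18, Oas1a, Oas1g, Rtp4, Xaf1 and others), lung epithelial genes (Scgb3a2, Hp, Scd1, Cldn18) and endothelial genes (Mmrn2, Gja5). Among the falls were skeletal muscle genes (Myh8, Acta1, Tnnt3, Myh1, Atp2a1), Myl3, a myosin gene of heart and slow skeletal muscle, and Fkbp5, a glucocorticoid target. The log2 fold changes ran from 0.86 to 3.23 among the rises and from -0.62 to -2.79 among the falls.

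**Figure D2:**
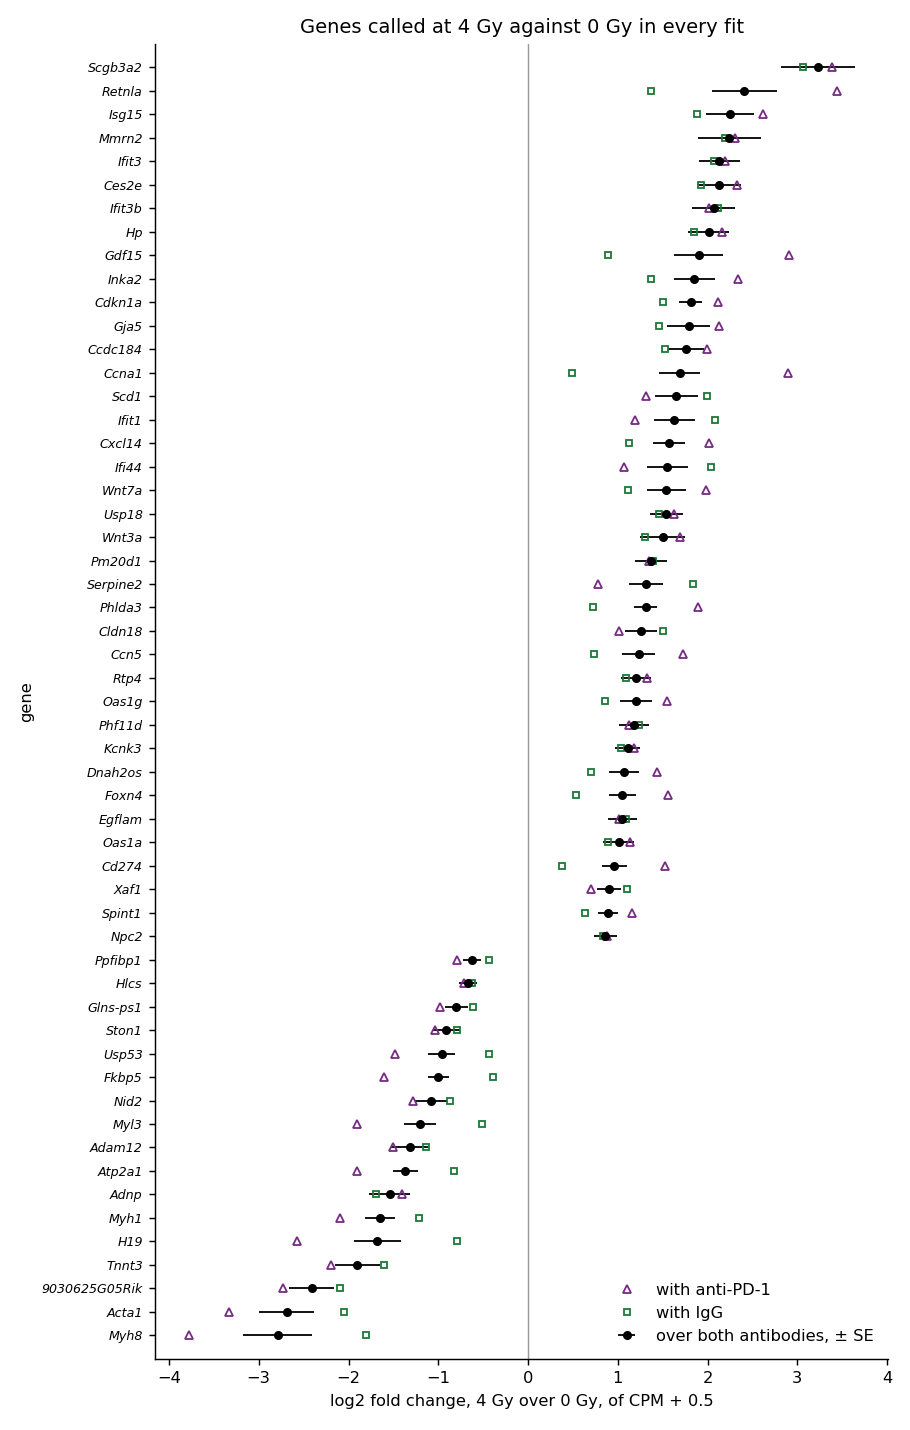
Log2 fold change of CPM + 0.5 at 4 Gy over 0 Gy (x axis) for the 55 genes called in the fit reported and in all 20 alternatives (y axis), with black points and bars for the mean over both antibodies ± SE, purple triangles for the change with anti-PD-1 and green squares for the change with IgG. Scgb3a2 had the largest rise at 3.23 and Myh8 the largest fall at -2.79, and each gene has the same sign with both antibodies.

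Part of the p53 pathway rose. Cdkn1a, which encodes p21 (mm10, chromosome 17, 29090976 to 29100727, plus strand), had 189, 228 and 281 CPM with anti-PD-1 and 132 and 144 CPM with IgG at 4 Gy, against 47.6 and 57.6 CPM with anti-PD-1 and 45, 40.5 and 62.8 CPM with IgG at 0 Gy. The lowest 4 Gy library stood above the highest 0 Gy library by more than the whole range at 0 Gy, and the gene had the lowest p of any rise (log2 fold change 1.81 ± 0.13, SE, limma, adjusted p = 2.46e-05). Phlda3, which restrains Akt signalling, had 60, 80.1 and 81.9 CPM with anti-PD-1 and 37.1 and 40.6 CPM with IgG at 4 Gy, against 22.1 and 16.9 CPM with anti-PD-1 and 27.6, 18.9 and 24.6 CPM with IgG at 0 Gy. The groups did not overlap, and the IgG libraries were the closest to each other across dose. The stress cytokine gene Gdf15 had 5.53, 7.78 and 9.17 CPM with anti-PD-1 and 3.27 and 4.37 CPM with IgG at 4 Gy, against 0.434 and 0.665 CPM with anti-PD-1 and 1.71, 3.14 and 1.03 CPM with IgG at 0 Gy. With IgG its ranges lay next to each other (3.27 against 3.14 CPM).

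Other p53 targets rose less. Eda2r, a death receptor of the TNF receptor family (chromosome X, 97333840 to 97377216), had 2.45, 2.38 and 2.55 CPM with anti-PD-1 and 3.88 and 2.87 CPM with IgG at 4 Gy, against 1.07 and 1.33 CPM with anti-PD-1 and 0.79, 0.601 and 1.12 CPM with IgG at 0 Gy. The doses did not overlap, and the 4 Gy libraries with the most were both with IgG. Dcxr (log2 fold change 1.29 ± 0.19), Ak1 (0.97 ± 0.20), Psrc1 (0.95 ± 0.17), the exonuclease gene Aen (0.85 ± 0.16) and Bax, a pore-forming apoptosis gene (0.79 ± 0.13), also passed. Ddb2, a DNA damage sensor of nucleotide excision repair, fell. It had 21.5, 13.3 and 13.1 CPM with anti-PD-1 and 14.7 and 14.5 CPM with IgG at 4 Gy, against 35.8 and 37.3 CPM with anti-PD-1 and 20, 30.5 and 19.9 CPM with IgG at 0 Gy (-0.92 ± 0.19, limma, adjusted p = 0.0135), with 1 of the 4 Gy libraries, anti-PD-1 replicate 1, inside the 0 Gy range. Its span overlaps Acp2 on the other strand. Mdm2, which encodes the p53 ligase (0.37 ± 0.13, adjusted p = 0.0591), and Trp53 itself (0.24 ± 0.16, adjusted p = 0.275) did not pass in limma.

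Of 35 p53 targets measured, 11 rose, 2 fell (Ddb2 and Xpc, both of nucleotide excision repair) and 22 did not pass. The median log2 fold change of the list was 0.09, against -0.14 for all genes tested, and 20 of the 35 had a positive fold change. With quantile normalization 16 rose and with equal library medians 15, each with 1 fall and a median of 0.21. The strict fits called 7 (10 libraries alone), 3 (without the 2 outlying libraries) and 7 (without IgG 4 Gy replicate 2) of the 35, none lower. The calls of Ddb2, Aen and Ak1 ended in all 3 strict fits and that of Bax, Dcxr, Eda2r and Psrc1 without the 2 outlying libraries. Inka2, which encodes an inhibitor of the kinase Pak4 and is not in the list, passed in every fit, with 12.6, 14.7 and 18.1 CPM with anti-PD-1 and 9.41 and 11.3 CPM with IgG at 4 Gy, against 1.87 and 3.45 CPM with anti-PD-1 and 3.84, 2.34 and 5.49 CPM with IgG at 0 Gy (1.85 ± 0.23).

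**Figure D3:**
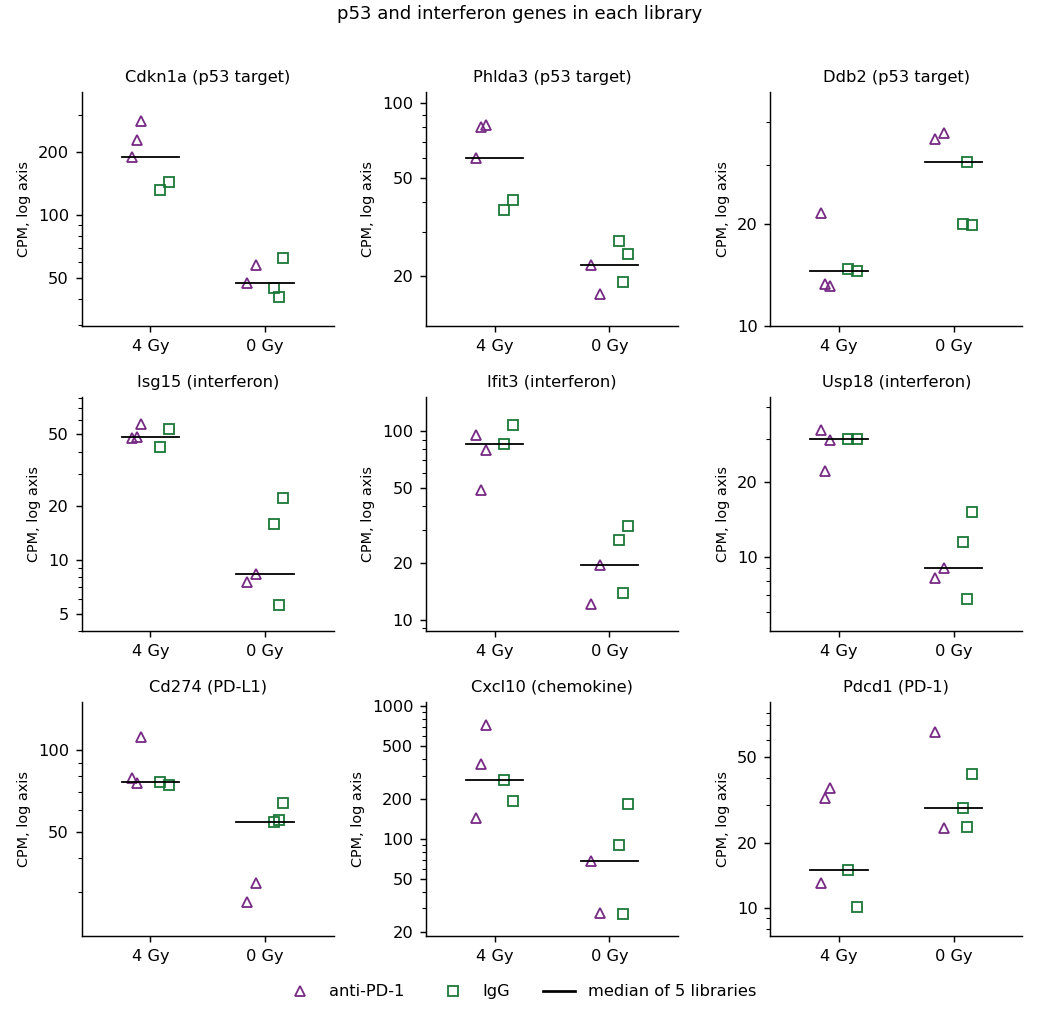
CPM on a log axis (y) of 9 genes in each library at 4 Gy and 0 Gy (x), purple triangles for anti-PD-1, green squares for IgG and a black line for the median of the 5 libraries of a dose. Cdkn1a, Phlda3, Isg15, Ifit3, Usp18 and Cd274 do not overlap between doses, whereas Ddb2, Cxcl10 and Pdcd1 do.

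Interferon-induced genes were higher with both antibodies. Within IgG alone (2 against 3 libraries) Isg15 (limma, adjusted p = 0.127) and Ifit3 (adjusted p = 0.0626) did not pass. Within anti-PD-1 alone both did (limma, adjusted p = 0.00276 and 0.00324). Isg15, a ubiquitin-like modifier (chromosome 4, 156199455 to 156200796, minus strand), had 47.7, 48.4 and 57.2 CPM with anti-PD-1 and 42.3 and 53.4 CPM with IgG at 4 Gy, against 7.48 and 8.29 CPM with anti-PD-1 and 15.7, 5.58 and 22 CPM with IgG at 0 Gy (2.25 ± 0.27, limma, adjusted p = 0.00105). All 4 Gy libraries lay close together and above every 0 Gy library. Ifit3, an RNA-binding antiviral gene (chromosome 19, 34583531 to 34588731, plus strand), had 95.7, 48.8 and 79.6 CPM with anti-PD-1 and 85.6 and 108 CPM with IgG at 4 Gy, against 12.1 and 19.5 CPM with anti-PD-1 and 26.5, 13.9 and 31.2 CPM with IgG at 0 Gy (2.13 ± 0.23, adjusted p = 0.000813). Its lowest 4 Gy library was outlying replicate 2 with anti-PD-1, which also had the lowest 4 Gy level of Usp18. Usp18, the protease that removes Isg15 from proteins, had 32.5, 22.1 and 29.5 CPM with anti-PD-1 and 30 and 29.9 CPM with IgG at 4 Gy, against 8.24 and 9.03 CPM with anti-PD-1 and 11.5, 6.77 and 15.2 CPM with IgG at 0 Gy. Ifit1, from the same cluster on chromosome 19 (34640871 to 34650009), had 26.4, 12.6 and 10.6 CPM with anti-PD-1 and 36 and 38.4 CPM with IgG at 4 Gy, against 5.42 and 7.62 CPM with anti-PD-1 and 8.2, 7.75 and 9.42 CPM with IgG at 0 Gy. In Ifit1 the IgG libraries were the high ones at 4 Gy, and the groups did not overlap.

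Factors of the interferon response are known to bind a pair of GAAA boxes, the interferon-stimulated response element. The promoters of 4 genes that rose are shown because they hold GAAA, any 2 bases and GAAA again (or, for the other strand, TTTC, any 2 bases and TTTC), which stand in capitals. Each is the 250 bases before the gene start, 5′ to 3′ on the gene's own strand, from RefSeq on mm10 (GRCm38). Isg15 is at chr4:156200819-156201068 (minus strand), Ifit3 at chr19:34583279-34583528 (plus), Ifit1 at chr19:34640639-34640888 (plus) and Cxcl10 at chr5:92348890-92349139 (minus).
Isg15: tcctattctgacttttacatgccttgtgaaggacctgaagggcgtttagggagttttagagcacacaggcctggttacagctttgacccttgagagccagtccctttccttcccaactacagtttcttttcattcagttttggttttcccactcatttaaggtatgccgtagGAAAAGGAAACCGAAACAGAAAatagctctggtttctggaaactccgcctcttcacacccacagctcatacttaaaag
Ifit3: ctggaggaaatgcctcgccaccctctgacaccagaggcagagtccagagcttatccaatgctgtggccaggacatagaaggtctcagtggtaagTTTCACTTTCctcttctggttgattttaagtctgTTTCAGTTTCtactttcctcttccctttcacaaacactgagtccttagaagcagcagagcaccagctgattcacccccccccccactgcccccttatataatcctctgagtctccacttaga
Ifit1: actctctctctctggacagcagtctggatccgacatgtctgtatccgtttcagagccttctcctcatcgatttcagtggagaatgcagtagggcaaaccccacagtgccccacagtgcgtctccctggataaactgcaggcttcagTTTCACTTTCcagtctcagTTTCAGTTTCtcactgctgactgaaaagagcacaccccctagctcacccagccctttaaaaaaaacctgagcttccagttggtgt
Cxcl10: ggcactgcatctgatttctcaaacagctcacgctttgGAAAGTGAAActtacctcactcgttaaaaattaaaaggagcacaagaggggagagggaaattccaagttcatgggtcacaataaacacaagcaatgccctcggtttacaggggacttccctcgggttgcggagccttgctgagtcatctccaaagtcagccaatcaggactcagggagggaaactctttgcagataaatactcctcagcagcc

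The 3 matches of Isg15 overlap and start 78, 72 and 66 bases before the gene start. Those of Ifit3 start 156 and 122 bases before it, and the match of Cxcl10 starts 213 bases before it. Over the list, 9 of the 22 type I interferon genes with a promoter in the table held the letters on either strand (40.9%), as did 10 of 16 interferon gamma genes (62.5%), against 3.37% of the 11848 genes tested that have a promoter there. A match describes letters and is not a binding site.

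Of 32 type I interferon genes measured, 27 rose, none fell and 5 did not pass, with a median log2 fold change of 1.03 (1.08 with anti-PD-1 and 1.07 with IgG) against -0.14 for all genes. In 16 of the 32 every 4 Gy library was above every 0 Gy library, against 1.73% of all genes tested. The count of rises was 8 in the fit of the 10 libraries, 13 without the 2 outlying libraries and 9 without IgG 4 Gy replicate 2. Irf7, the factor that amplifies interferon production, had 148, 117 and 140 CPM with anti-PD-1 and 110 and 129 CPM with IgG at 4 Gy, against 42.6 and 36.3 CPM with anti-PD-1 and 55.3, 21.1 and 79.7 CPM with IgG at 0 Gy (1.57 ± 0.27). The groups did not overlap, but its call ended in the strict fits (limma, adjusted p = 0.05 in the 10 libraries), and its span overlaps Phrf1 on the other strand. Rsad2, which makes an antiviral nucleotide, reached 26.3, 6.15 and 13.5 CPM with anti-PD-1 and 25.3 and 32.4 CPM with IgG at 4 Gy, against 2.64 and 5.17 CPM with anti-PD-1 and 7.33, 6.49 and 10.3 CPM with IgG at 0 Gy, and outlying replicate 2 lay within the 0 Gy range. The oligoadenylate synthetase genes Oas1a (1.01 ± 0.17), Oas1g (1.2 ± 0.18) and Oas3 (1.32 ± 0.23) rose as well. Oas1a and Oas1g, like Ifit3 and Ifit3b, are near-identical copies and may share reads. Genes that sense nucleic acid upstream of interferon did not move as a list, with 1 of 12 higher, 1 lower and a median of 0.10.

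Genes induced by interferon gamma rose in 19 of 22 cases, none fell and 3 did not pass (Ciita, Gbp7 and Nlrc5), with a median of 1.06 (1.3 with anti-PD-1 and 0.85 with IgG). In the strict fits 2, 1 and 2 of them passed. In 3 of the 22 every 4 Gy library was above every 0 Gy library, as in 1.73% of all genes tested. Cd274, which encodes PD-L1 (chromosome 19, 29367455 to 29388095, plus strand), was the one called in every fit. It had 78.7, 75.6 and 112 CPM with anti-PD-1 and 76.6 and 74.1 CPM with IgG at 4 Gy, against 27.5 and 32.3 CPM with anti-PD-1 and 54.3, 55.4 and 63.9 CPM with IgG at 0 Gy (0.96 ± 0.14, limma, adjusted p = 0.00358). The anti-PD-1 libraries were the low ones at 0 Gy, and outlying replicate 3 was the high one at 4 Gy. Pdcd1lg2, the gene of the other PD-1 ligand, had 12.4, 14.9 and 18.2 CPM with anti-PD-1 and 10.6 and 14.8 CPM with IgG at 4 Gy, against 4.78 and 3.18 CPM with anti-PD-1 and 6.62, 6.54 and 10.7 CPM with IgG at 0 Gy, which overlap by 1 IgG library (1.24 ± 0.21, adjusted p = 0.00761).

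The chemokine gene Cxcl10, which draws CXCR3-bearing T cells (chromosome 5, 92346638 to 92348889, within the span of Art3), had 143, 368 and 725 CPM with anti-PD-1 and 279 and 194 CPM with IgG at 4 Gy, against 68.5 and 27.6 CPM with anti-PD-1 and 90.1, 27.2 and 185 CPM with IgG at 0 Gy. The 2 outlying libraries were the high ones, and IgG 0 Gy replicate 3 reached above anti-PD-1 4 Gy replicate 1. Its log2 fold change of 2.26 ± 0.49 (limma, adjusted p = 0.0150) was 1.65 without the 2 outlying libraries, where the call ended. Socs1, a feedback inhibitor of cytokine signalling, had 61.8 and 87 CPM in the 2 outlying libraries and 15.8 to 19.4 CPM in the other 4 Gy libraries, against 4.53 to 19.8 CPM at 0 Gy. Nos2, the inducible nitric oxide synthase, had 74.3 and 112 CPM in these 2 libraries and 14.4 to 26.6 CPM in the others at 4 Gy, against 5.98 to 23.5 CPM at 0 Gy. Both genes overlapped between doses outside the 2 libraries. Ifng, the cytokine itself, had 3.2, 7.9 and 20.2 CPM with anti-PD-1 and 3.96 and 2.46 CPM with IgG at 4 Gy, against 2.19 and 1.47 CPM with anti-PD-1 and 2.8, 1.53 and 5.93 CPM with IgG at 0 Gy, and did not pass (0.98 ± 0.45, adjusted p = 0.126). Against 5.33% of all genes, 4 of 18 genes of MHC class I and peptide loading rose and none fell, with a median of 0.36. These were Tapbp, the chaperone of peptide loading (0.70 ± 0.20), the transporter gene Tap2 (0.84 ± 0.25), the immunoproteasome subunit gene Psmb10 (0.91 ± 0.27) and H2-T23 (0.64 ± 0.20). None of the 4 passed in any strict fit, and of 9 MHC class II genes 1 rose.

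Many markers of club, alveolar, ciliated and blood vessel cells were higher at 4 Gy. Scgb3a2, a secretoglobin of distal club cells, had the largest rise of the genes called in every fit. It had 976, 767 and 1094 CPM with anti-PD-1 and 620 and 357 CPM with IgG at 4 Gy, against 58.6 and 134 CPM with anti-PD-1 and 63.8, 26.8 and 102 CPM with IgG at 0 Gy (3.23 ± 0.41, limma, adjusted p = 0.00165). The lowest 4 Gy library was above the highest 0 Gy library, with either antibody. Hp, which encodes the haemoglobin-binding protein haptoglobin (chromosome 8, 109575128 to 109579172), had 638, 747 and 909 CPM with anti-PD-1 and 465 and 502 CPM with IgG at 4 Gy, against 136 and 209 CPM with anti-PD-1 and 151, 97.9 and 160 CPM with IgG at 0 Gy (2.01 ± 0.23). Scgb1a1, the marker of the series title (chromosome 19, 9083636 to 9087958), had 6866, 6484 and 12303 CPM with anti-PD-1 and 5156 and 3712 CPM with IgG at 4 Gy, against 2092 and 3778 CPM with anti-PD-1 and 2170, 850 and 3668 CPM with IgG at 0 Gy. Its ranges touched, since IgG 4 Gy replicate 2 lay below anti-PD-1 0 Gy replicate 2. The log2 fold change was 1.38 ± 0.45 (adjusted p = 0.0490), a call that held in 5 of the 20 alternatives, and the value was 0.85 with quantile normalization.

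Of 20 club cell genes 12 rose, none fell and 8 did not pass, with a median of 1.19 (1.32 with anti-PD-1 and 1.2 with IgG). Among them were Chad (2.05 ± 0.43), the detoxifying enzyme gene Cyp2f2 (2.15 ± 0.50), the receptor genes Cckar (1.64 ± 0.32) and Gabrp (1.27 ± 0.26). The strict fits called 5, 2 and 2 of the 20. Of 17 alveolar type 2 genes 13 rose and none fell (median 1.46), of 15 alveolar type 1 genes 7 and none (median 0.77), and of 19 ciliated cell genes 8 and none (median 1.04). The strict fits called 3, 1 and 2 of the alveolar type 2 genes, 2, 0 and 0 of the type 1 genes and 0 of the ciliated cell genes. Sftpb, a surfactant protein gene, had 1238, 2541 and 2596 CPM with anti-PD-1 and 878 and 1928 CPM with IgG at 4 Gy, against 269 and 447 CPM with anti-PD-1 and 399, 161 and 754 CPM with IgG at 0 Gy. The groups did not overlap, and the call (2.18 ± 0.37) ended in the strict fits. Scd1, a desaturase that makes oleate and serves surfactant lipids, passed in every fit and was highest in IgG 4 Gy replicate 2 at 1561 CPM, with 677 CPM in the other IgG library and 385, 457 and 409 CPM with anti-PD-1, against 124 and 225 CPM with anti-PD-1 and 293, 177 and 333 CPM with IgG at 0 Gy.

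Among alveolar type 1 genes, Ager, a receptor of the cell's basal face, had 597, 628 and 584 CPM with anti-PD-1 and 350 and 700 CPM with IgG at 4 Gy, against 157 and 228 CPM with anti-PD-1 and 163, 71.6 and 246 CPM with IgG at 0 Gy (1.73 ± 0.34). Cldn18, a claudin of alveolar tight junctions outside the list, passed in every fit and had 71.7, 70.6 and 81.7 CPM with anti-PD-1 and 74.8 and 117 CPM with IgG at 4 Gy, against 31.5 and 42.7 CPM with anti-PD-1 and 32.1, 30.6 and 36.1 CPM with IgG at 0 Gy. In both genes the 4 Gy libraries were all above the 0 Gy libraries. Igfbp2 (2.36 ± 0.45), the water channel gene Aqp5 (1.53 ± 0.33) and Hopx (1.08 ± 0.24) rose too. In ciliated cells Foxj1, the master regulator of motile cilia, had 62.8, 82.8 and 112 CPM with anti-PD-1 and 50.5 and 28.4 CPM with IgG at 4 Gy, against 19.2 and 26.4 CPM with anti-PD-1 and 26.4, 9.01 and 30.1 CPM with IgG at 0 Gy, which overlap (1.41 ± 0.36). The dynein gene Dynlrb2 rose by 2.03 ± 0.39. The epithelial protease inhibitor gene Spint1 passed in every fit (0.89 ± 0.11).

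Blood vessel genes rose in 12 of 23 cases and none fell, with a median of 1.12, and 0 passed in each strict fit. Outside that list, Mmrn2, a matrix protein of endothelium (chromosome 14, 34375465 to 34404287), was called in every fit. It had 19.2, 17.9 and 11.4 CPM with anti-PD-1 and 11.7 and 17.1 CPM with IgG at 4 Gy, against 1.87 and 4.14 CPM with anti-PD-1 and 2.75, 1.38 and 4.96 CPM with IgG at 0 Gy (2.24 ± 0.35). Gja5, the connexin of arterial endothelium, had 6.51, 7.23 and 5.52 CPM with anti-PD-1 and 5.31 and 8.26 CPM with IgG at 4 Gy, against 0.969 and 1.18 CPM with anti-PD-1 and 2.56, 0.979 and 3.39 CPM with IgG at 0 Gy. Neither overlapped between doses. Cldn5, the claudin of vessel walls, had 92.7, 105 and 83.5 CPM with anti-PD-1 and 38.7 and 41 CPM with IgG at 4 Gy, against 20.9 and 33 CPM with anti-PD-1 and 13.1, 2.54 and 36.3 CPM with IgG at 0 Gy, a spread at 0 Gy set by IgG replicate 2. Plvap (1.89 ± 0.42), Eng (1.45 ± 0.30), Emcn (1.24 ± 0.30) and Sox18 (1.87 ± 0.36) also passed. Of all genes tested 5.33% rose and 12.2% fell. Of 23 fibroblast and matrix genes 3 rose and 4 fell (median -0.21), and 4 rose and 1 fell with quantile normalization. Of 15 smooth muscle and pericyte genes 5 rose (median 0.34), and of 8 mesothelial genes 0 passed (median -0.39). Of 8 basal and goblet cell genes 1 rose and 1 fell, and of 9 lymphatic endothelial genes also 1 and 1.

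More cells of a type and more RNA per cell cannot be told apart in these bulk libraries. Beside the lung cell lists, the 15 genes encoded in mitochondria summed to 37567 to 59021 CPM at 4 Gy, against 8989 to 32274 at 0 Gy, and 10 of the 15 rose (mt-Nd4 by 1.63 ± 0.39), 6 with quantile normalization and 0 in each strict fit. The summed CPM of 8 red cell genes was 5333 to 30220 at 4 Gy, against 1996 to 22048 at 0 Gy, and 2 of the 8 rose (Hba-a1 and Hba-a2). IgG 0 Gy replicate 2 had the lowest club, alveolar type 1 and endothelial sums of the 10 libraries. The part of cell content and RNA quality in the rises of lung genes was not tested.

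**Figure D4:**
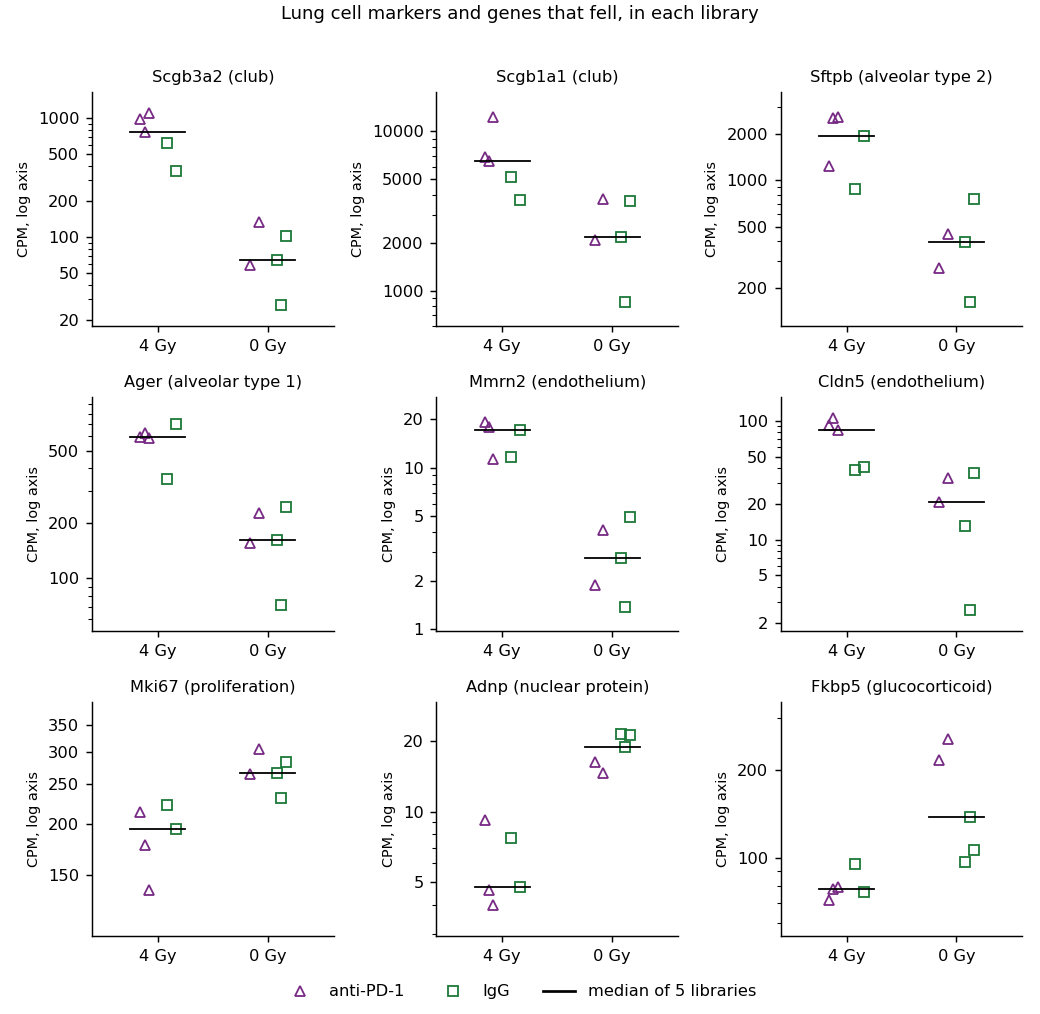
CPM on a log axis (y) of 6 lung cell markers and 3 genes that fell, in each library at 4 Gy and 0 Gy (x), purple triangles for anti-PD-1, green squares for IgG and a black line for the median of the 5 libraries of a dose. Scgb3a2, Sftpb, Ager, Mmrn2 and Cldn5 are higher in each 4 Gy library than in any 0 Gy library, Mki67, Adnp and Fkbp5 are lower, and Scgb1a1 touches between doses.

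Some genes known from macrophages rose, though bulk libraries do not show which cells made them. Retnla, a secreted protein of type 2 macrophages (chromosome 16, 48842551 to 48844461), had 143, 148 and 257 CPM with anti-PD-1 and 87.2 and 160 CPM with IgG at 4 Gy, against 12.9 and 19.2 CPM with anti-PD-1 and 45, 24.9 and 82.5 CPM with IgG at 0 Gy (2.41 ± 0.36, limma, adjusted p = 0.00394). Ccl24, a chemokine for eosinophils, had 23.1, 33.2 and 27.5 CPM with anti-PD-1 and 25.3 and 57.5 CPM with IgG at 4 Gy, against 5.95 and 6.89 CPM with anti-PD-1 and 13.3, 8.34 and 18.7 CPM with IgG at 0 Gy (1.79 ± 0.26). In both the 0 Gy anti-PD-1 libraries were the lowest and no library crossed the doses. The lysosomal cholesterol carrier gene Npc2 passed in every fit (0.86 ± 0.13). Of 18 suppressive and type 2 myeloid genes 5 rose and 1 fell, the scavenger receptor gene Cd163 (-1.31 ± 0.34), and of 20 monocyte and macrophage genes 5 rose, among them the Fc receptor gene Fcgr1 (0.91 ± 0.16) and Ly6c2 (1.07 ± 0.23). The strict fits called 1 (10 libraries alone), 2 (without the 2 outlying libraries) and 0 (without IgG 4 Gy replicate 2) of those 20. Of 17 alveolar macrophage genes 1 rose and 5 had a positive fold change (median -0.20). Of 15 neutrophil genes 2 rose and 4 fell, where 5.33% of all genes rose and 12.2% fell. Mmp8, a neutrophil collagenase, had 4.75, 3.05 and 2.01 CPM with anti-PD-1 and 3.42 and 6.08 CPM with IgG at 4 Gy, against 21.7 and 66.2 CPM with anti-PD-1 and 4.42, 5.29 and 5.82 CPM with IgG at 0 Gy. Its fall (-1.79 ± 0.30) stood between the anti-PD-1 libraries, and with IgG the doses overlapped.

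Of 23 T cell genes 1 fell and none rose, with a median of -0.14 (0.31 with anti-PD-1 and -0.65 with IgG). The difference between antibodies passed for 2 of the 23, against 9.08% of all genes. Cd3e, of the T cell receptor complex (-0.54 ± 0.22, limma, adjusted p = 0.0971), and Cd8a (-0.62 ± 0.27, adjusted p = 0.111) did not pass. Of 17 checkpoint and regulatory T cell genes 5 fell, where 12.2% of all genes fell. With quantile normalization 4 fell and 1 rose, and with equal library medians 2 fell and 1 rose. None of the 5 falls passed in a strict fit. They were Tigit (-0.99 ± 0.21) and Ctla4 (-0.95 ± 0.22), both receptors that restrain T cells, Tox, a factor of exhausted T cells (-1.04 ± 0.31), Cd96 (-0.78) and Ikzf2 (-0.86). Pdcd1, the gene of PD-1, had 13, 32.1 and 35.8 CPM with anti-PD-1 and 14.9 and 10.1 CPM with IgG at 4 Gy, against 65 and 23.4 CPM with anti-PD-1 and 29, 23.6 and 41.6 CPM with IgG at 0 Gy. With IgG the doses did not overlap, with anti-PD-1 they did, and over both the gene did not pass (-0.97 ± 0.34, adjusted p = 0.0582). Of 18 cytotoxic genes 1 rose (the granzyme gene Gzmc, 1.27 ± 0.25) and 1 fell (Gzmk, -1.63 ± 0.40), against 5.33% and 12.2% of all genes.

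Ighg1, an immunoglobulin heavy chain gene, had 2.22, 5.48 and 3.97 CPM with anti-PD-1 and 11.4 and 3.62 CPM with IgG at 4 Gy, against 54.3 and 19.2 CPM with anti-PD-1 and 18.1, 80.6 and 13.3 CPM with IgG at 0 Gy (-2.48 ± 0.50, limma, adjusted p = 0.0130). Ighg3 fell by 2.06 on the log2 scale and Ighg2c by 1.86, while Ighg2b (-1.43 ± 0.48, adjusted p = 0.0534) did not pass. All these calls ended in the strict fits, and the chains are similar enough to share reads. Of the 22 genes in the B and plasma cell list 13 had a positive fold change, none rose and 2 fell, where 12.2% of all genes fell. The falls were Cxcl13, the chemokine of B cell follicles (-1.65 ± 0.28), and Jchain, which joins IgM and IgA chains (-1.46 ± 0.42). The median of the list was 0.86 with anti-PD-1 and -0.80 with IgG. The difference between antibodies passed for 1 of the 22, against 9.08% of all genes.

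Genes of cell division were lower over both antibodies, less so with IgG. Mki67, the proliferation marker (chromosome 7, 135689784 to 135716361), had 214, 178 and 138 CPM with anti-PD-1 and 222 and 194 CPM with IgG at 4 Gy, against 265 and 305 CPM with anti-PD-1 and 267, 231 and 284 CPM with IgG at 0 Gy (-0.52 ± 0.12, limma, adjusted p = 0.0173). Kif23, a kinesin of cytokinesis, had 61.9, 65.6 and 47.9 CPM with anti-PD-1 and 74.1 and 62.6 CPM with IgG at 4 Gy, against 99.9 and 106 CPM with anti-PD-1 and 93.1, 94.2 and 82.5 CPM with IgG at 0 Gy (-0.61 ± 0.11). In neither did the doses overlap, and outlying replicate 3 was the lowest. Of 28 mitosis genes 17 fell, none rose and 11 did not pass, with a median of -0.50 against -0.14 for all genes. With anti-PD-1 the median was -0.70, against -0.13 for all genes, and with IgG -0.16, against -0.10. Without the 2 outlying libraries the median over both antibodies was -0.36, against -0.09 for all genes. In 10 of the 28 every 4 Gy library was below every 0 Gy library, against 4.23% of all genes tested. None of the 28 passed in the strict fits. In the 10 libraries alone Kif23 (limma, adjusted p = 0.0511) and Mki67 (adjusted p = 0.075) did not pass. Their fold changes are the same there by construction, since group means do not depend on the 8 Gy libraries. Only the estimate of the spread differs between these 2 fits. Quantile normalization left 14 falls with a median of -0.39. Of 26 replication genes 4 fell (median -0.18), where 12.2% of all genes fell. With quantile normalization 2 fell and with equal library medians 1. Of 26 break repair genes 8 fell (median -0.38), and 4 and 3 with those scalings. Among them were Brca2, which loads the recombinase onto broken DNA (-0.60 ± 0.13), and Rad50, of the complex that senses breaks (-0.39 ± 0.10). The call of Rad50 ended with quantile normalization and with equal library medians, and no gene of either list passed in a strict fit.

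Promoters of mitosis genes often hold the letters TTTGAA, the cell cycle genes homology region that the DREAM complex is known to use. They stood on either strand in 9 of the 24 mitosis genes with a promoter in the table (37.5%), against 13.5% of the genes tested, and also in 37.5% of the interferon gamma genes. The promoter of Prc1, a spindle midzone gene that fell (-0.43 ± 0.09), is shown with its match in capitals, 30 bases before the gene start (RefSeq, mm10, chr7:80294226-80294475, plus strand).
Prc1: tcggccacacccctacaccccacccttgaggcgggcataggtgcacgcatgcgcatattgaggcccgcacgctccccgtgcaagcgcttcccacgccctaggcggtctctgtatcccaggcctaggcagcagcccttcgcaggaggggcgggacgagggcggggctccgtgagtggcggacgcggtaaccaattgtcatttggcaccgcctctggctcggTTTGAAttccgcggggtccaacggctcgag

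No gene of the mitosis, replication or break repair lists was among the falls that passed in every fit. Adnp, a zinc finger and homeobox protein of chromatin (chromosome 2, 168180986 to 168207112), had 9.18, 4.61 and 3.97 CPM with anti-PD-1 and 7.68 and 4.74 CPM with IgG at 4 Gy, against 16.3 and 14.6 CPM with anti-PD-1 and 21.6, 19 and 21.3 CPM with IgG at 0 Gy (-1.54 ± 0.23, limma, adjusted p = 0.00396). Adam12, a membrane metalloprotease, had 10.3, 23.4 and 10.3 CPM with anti-PD-1 and 17 and 13 CPM with IgG at 4 Gy, against 48.9 and 31.8 CPM with anti-PD-1 and 35.6, 32.9 and 32.2 CPM with IgG at 0 Gy (-1.32 ± 0.21). Nid2, a basement membrane protein, had 7.32, 7.94 and 4.38 CPM with anti-PD-1 and 8.52 and 8.67 CPM with IgG at 4 Gy, against 16.4 and 16 CPM with anti-PD-1 and 19.5, 17.1 and 12.5 CPM with IgG at 0 Gy (-1.08 ± 0.18). In all 3 the doses were apart with each antibody. The imprinted long non-coding RNA H19 fell by 1.68 ± 0.26 and Rian, another imprinted one, by 1.17 ± 0.19, the call of Rian ending without the 2 outlying libraries. Usp53 (-0.96 ± 0.15), the endocytosis gene Ston1 (-0.91 ± 0.15), the biotin ligase gene Hlcs (-0.67 ± 0.10) and Ppfibp1 (-0.62 ± 0.10) fell too. The log2 fold change of Usp53 was -1.48 with anti-PD-1 and -0.44 with IgG.

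Of 12 skeletal and heart muscle genes 5 fell and 3 rose (median -0.02), the skeletal ones falling and the heart ones rising, and the strict fits called 3, 4 and 3 of the falls. Acta1, the muscle actin, had 0.149, 2.36 and 0.74 CPM with anti-PD-1 and 0.0592 and 0.174 CPM with IgG at 4 Gy, against 12.8 and 12.7 CPM with anti-PD-1 and 2.25, 1.37 and 2.67 CPM with IgG at 0 Gy (-2.69 ± 0.31). Outlying replicate 2 crossed the 0 Gy range, and the 0 Gy anti-PD-1 libraries were the high ones. Myh8, the perinatal myosin, was at 1.46 CPM in that library and at the file's value for no reads in the other 4 Gy libraries, against 9.81 and 10.9 CPM with anti-PD-1 and 1.69, 0.318 and 2.42 CPM with IgG at 0 Gy. Tnnt3 (-1.90 ± 0.25), Myh1 (-1.65 ± 0.17) and the calcium pump gene Atp2a1 (-1.37 ± 0.14) fell in every fit, and fold changes this close to 0 reads depend on the pseudocount. Myh8 and Atp2a1 are not in the list, whose other falls were Ckm (-1.73 ± 0.31) and Mylpf (-0.78 ± 0.15). The heart muscle genes Myh6 and Myl7 went the other way, with Myh6 at 4.41, 8.88 and 10.5 CPM with anti-PD-1 and 1.66 and 0.632 CPM with IgG at 4 Gy, against 0.467 and 0.829 CPM with anti-PD-1 and 1.08, 0.0467 and 1.33 CPM with IgG at 0 Gy (1.62 ± 0.41) and Myl7 at 1.33 ± 0.30 on the log2 scale. Both calls ended in the strict fits. Also outside the list, Myl3, of heart and slow skeletal muscle, fell in every fit (-1.20 ± 0.18). Its mean was 0.115 CPM at 4 Gy and 0.957 CPM at 0 Gy.

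Of 15 glucocorticoid targets 7 fell and 1 rose, with a median of -0.76 (-1.10 with anti-PD-1 and -0.31 with IgG). Fkbp5, the co-chaperone that feeds back on the receptor (chromosome 17, 28399094 to 28517527), passed in every fit. It had 71.6, 78.1 and 79.1 CPM with anti-PD-1 and 95.5 and 76.1 CPM with IgG at 4 Gy, against 215 and 255 CPM with anti-PD-1 and 96.5, 138 and 106 CPM with IgG at 0 Gy (-1.0 ± 0.12, limma, adjusted p = 0.000849). The 0 Gy anti-PD-1 libraries were highest, and with IgG the doses lay next to each other (95.5 against 96.5 CPM). Zbtb16 had 3.08, 3.39 and 4.95 CPM with anti-PD-1 and 3.07 and 1.69 CPM with IgG at 4 Gy, against 14.8 and 22.5 CPM with anti-PD-1 and 1.88, 1.18 and 4.52 CPM with IgG at 0 Gy. Klf9 (-0.87 ± 0.17), Per1 (-0.80 ± 0.22) and Pdk4 (-1.29 ± 0.30) fell, and the cell cycle inhibitor gene Cdkn1c rose (1.14 ± 0.28). In the strict fits Fkbp5 alone of the 15 passed. Beside this, 1 of 16 lipid synthesis genes rose (Scd1) and 4 fell, 5 of 16 endoplasmic reticulum stress genes rose (Manf by 0.58 ± 0.14, Creld2 by 0.73 ± 0.18), and 1 of 18 hypoxia and glycolysis genes rose. Of all genes 5.33% rose and 12.2% fell. Of 16 genes of TGF-beta signalling 4 fell and none rose, but 2 rose and 2 fell with quantile normalization, 2 rose and 1 fell with equal library medians, and none passed in the strict fits.

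**Figure D5:**
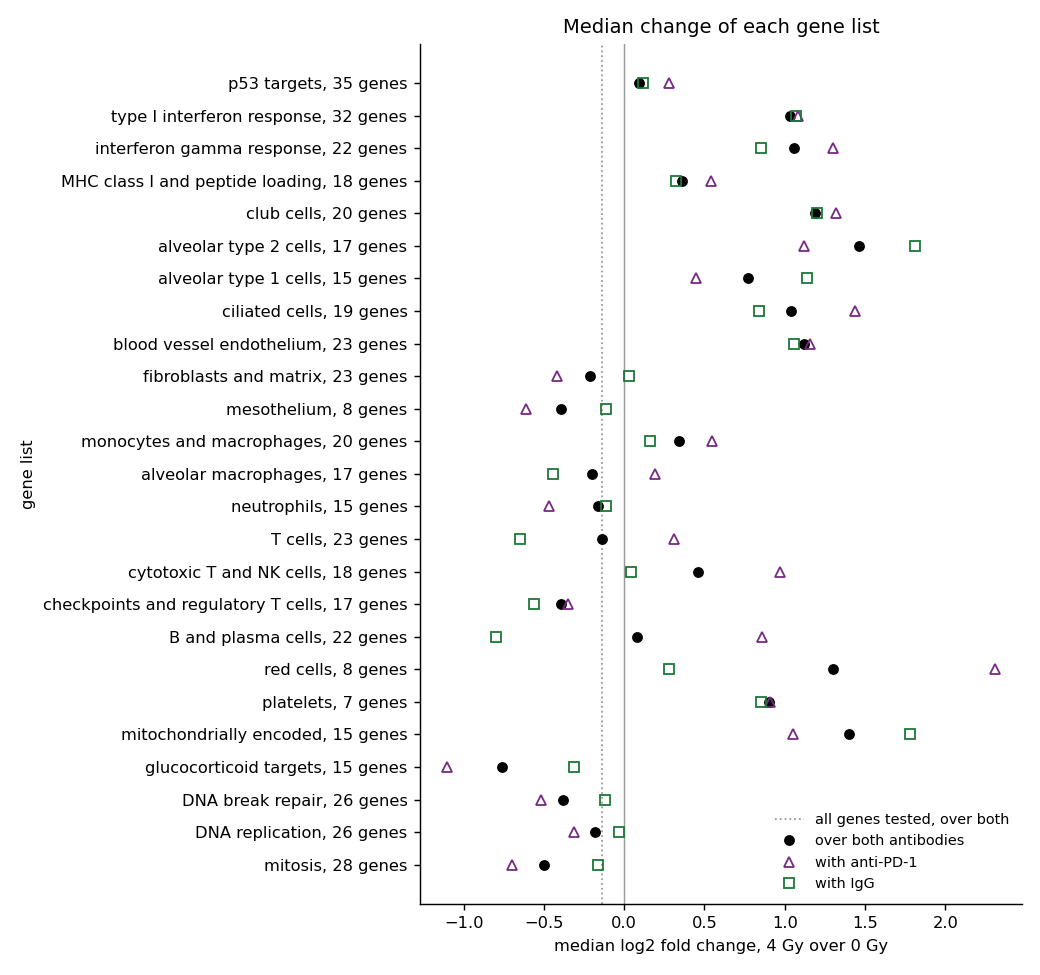
Median log2 fold change at 4 Gy over 0 Gy (x axis) of the genes tested in each of 25 lists (y axis, with the number of genes), black points over both antibodies, purple triangles with anti-PD-1, green squares with IgG, and a dotted line at the median of all genes tested (-0.14). The interferon, club, alveolar, ciliated and endothelial lists lie to the right with both antibodies, and the medians of the 2 antibodies are furthest apart for red cell genes (2.31 with anti-PD-1 and 0.28 with IgG), of which 0 of 8 passed the test of that difference.

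Whether the change with 4 Gy itself differed between the antibodies was tested as the difference of the changes with anti-PD-1 and with IgG. In the fit of all libraries 1593 genes passed (9.08%), 660 with a more positive and 933 with a more negative change with anti-PD-1. The log2 fold change of Bax was 1.40 with anti-PD-1 and 0.19 with IgG (difference 1.22 ± 0.25, limma, adjusted p = 0.0388), and Phlda3 at 1.89 and 0.72 (1.18 ± 0.26). Cd274 stood at 1.53 and 0.38 (1.15 ± 0.28), and Fkbp5 at -1.61 and -0.39 (-1.22 ± 0.23). Cdkn1a, at 2.12 and 1.5, did not pass (adjusted p = 0.117), and none of the type I interferon genes did. The count was 0 in the fit of the 10 compared libraries, with 4674 genes at an unadjusted p under 0.05, and 0 without the 2 outlying libraries, with 2532. It was also 0 without IgG 0 Gy replicate 1 or 3, IgG 4 Gy replicate 1 or 2, anti-PD-1 0 Gy replicate 2 or anti-PD-1 4 Gy replicate 2 or 3. It was 3 when anti-PD-1 0 Gy replicate 1 was left out. It was 4717 with anti-PD-1 4 Gy replicate 1 left out and 4824 with IgG 0 Gy replicate 2 left out.

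The 8 Gy libraries of the series, 6 in number, were set against the 4 Gy libraries to see where the lower dose differs. Their sample numbers in the column headers ran from 31 to 36, and those at 4 Gy from 26 to 30. If these mark separate preparations, preparation and dose cannot be told apart here either. At 8 Gy 2988 genes were higher than at 4 Gy (17%) and 3023 lower (17.2%). The same 4 Gy libraries enter both comparisons, and genes picked for a high or low level in them are favoured to differ from 8 Gy the other way, so the values below are descriptions. Scgb3a2 had 158 ± 155 CPM at 8 Gy (SD, n = 6) and 763 ± 291 CPM at 4 Gy (n = 5). Its difference, 8 Gy over 4 Gy, was -2.55 ± 0.39 on the log2 scale (limma, adjusted p = 0.000727), and those of Hp (-1.99 ± 0.22), Cldn18 (-1.89 ± 0.17) and Mmrn2 (-1.60 ± 0.33) passed as well. Among the lists, 19 of 20 club, 16 of 17 alveolar type 2, 15 of 15 alveolar type 1, 18 of 19 ciliated and 20 of 23 endothelial genes were lower at 8 Gy, and 21 of 28 mitosis genes were higher, Kif23 by 0.50 ± 0.10. The interferon genes Isg15 (-0.03 ± 0.26), Ifit3 (-0.14 ± 0.22) and Usp18 (-0.18 ± 0.18), Cdkn1a (-0.18 ± 0.13, adjusted p = 0.262) and Cd274 (0.21 ± 0.13, adjusted p = 0.241) did not pass, which does not show that the doses act alike. Phlda3 (-0.61 ± 0.12) and Gdf15 (-0.91 ± 0.25) were lower at 8 Gy. The counts of higher and lower genes were 451 and 1749 without the 2 outlying libraries, 1604 and 1966 without IgG 4 Gy replicate 1, 1158 and 2534 without IgG 4 Gy replicate 2, 1779 and 2581 with anti-PD-1 4 Gy replicate 3 left out, 1712 and 2372 with the first anti-PD-1 library at 8 Gy left out, and 1955 and 2555 without IgG 8 Gy replicate 3.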

How the data were processed

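Lung RNA of the pools was sequenced from TruSeq RNA libraries. The deposited table holds CPM per gene, made by the authors with STAR and Partek on mm10, per the submitters' processing notes. The sources used here give no versions, counting rules or strand use. In the file a value of 1e-04 stands for no reads. Between 60.1 and 63.2% of values under 100 reads per library came out as whole reads within 0.02, so counts were not modelled. A floor of 3 reads is at most 0.1254 CPM and covers counting error alone. Of 25 symbols turned into dates 24 were restored by position from GENCODE M21.

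Genes with at least 1 CPM in 2 or more of the 16 libraries were kept. Values were tested as log2 of CPM + 0.5 with limma 3.58.1 in R 4.3.3 (group means over all 16 libraries, mean trend, robust), so folds of low genes are understated. Benjamini-Hochberg adjustment ran over 17546 genes at 0.05. The program was tested on simulated data. Each of 20 alternatives for normalization, filter, pseudocount, model and libraries is given in the closing section. Promoters are from RefSeq.

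The members and the 46 gene lists were chosen with earlier results of these data known. Genes were named by rank of p and fold change, overall and within each list. Outside that rule, and chosen after their values were seen, are Aen, Ak1, Atp2a1, Cyp2f2, Ddb2, Eda2r, Gja5, Ifi44, Irf7, Mdm2, Myh6, Myh8, Myl3, Myl7, Nos2, Npc2, Oas1a, Oas1g, Oas3, Prc1, Psrc1, Rsad2, Rtp4, Socs1, Sox18, Spint1, Ston1, Xpc, Zbtb16 and, in the closing section, Ccna1 and Lamp3.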

Additional observations from a re-analysis of the deposited data

Results flagged for a closer look

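Single libraries stood apart from the others of their dose in 15 of 320 groups of 5 by Dixon's gap test (160 genes at 2 doses). Chance flags about 1 in 20 groups, which is 16 of 320, so the number found is what chance gives. At 4 Gy, replicate 3 with anti-PD-1 was high for Cd274 (112 CPM) and low for Kif12 (10.9 CPM) and Nid2 (4.38 CPM). Replicate 2 with anti-PD-1 was low for Usp18 (22.1 CPM) and Rtp4 (31.8 CPM) and was the one 4 Gy library with reads for Myh8 (1.46 CPM). Replicate 1 with anti-PD-1 was high for Ddb2 (21.5 CPM) and Cd163 (4.28 CPM). With IgG at 4 Gy, replicate 2 was high for Cldn18 (117 CPM) and Lamp3 (182 CPM), and replicate 1 was low for Ager (350 CPM). At 0 Gy, IgG replicate 2 was low for Ces2e (0.206 CPM) and Cyp2f2 (76.8 CPM), IgG replicate 3 was high for Flt3 (21.2 CPM), and anti-PD-1 replicate 1 was high for Adam12 (48.9 CPM).

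The change with 4 Gy differed between the antibodies in 1593 genes. Among the genes named, the log2 change with anti-PD-1 minus that with IgG was positive for Ccna1 (2.41), Gdf15 (2.02), Bax (1.22), Phlda3 (1.18) and Cd274 (1.15). It was negative for Mmp8 (-3.26), Zbtb16 (-2.19), H19 (-1.78), Klf9 (-1.24), Fkbp5 (-1.22), Atp2a1 (-1.07) and Usp53 (-1.04). Their adjusted p in limma lay between 0.0334 and 0.0476.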

How the results depend on the processing

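The 3076 calls became 131 in the 10 libraries alone, 91 without the 2 outlying libraries, 1474 in an additive model and 7029 with array quality weights. Leaving out 1 library gave 97 to 5747. The difference between antibodies (1593) became 2591 with quantile normalization, 414 with no filter, 6708 with weights, and 0 in the 10 libraries and without the outlying pair, and 0 to 4824 leaving out 1 library. For 8 Gy against 4 Gy (6011) weights gave 9164, the outlying pair left out 2200, and 1 library left out 3570 to 7431. The mitochondrial difference was 2.46 to 3.61 percentage points leaving out 1 library. The cause was not tested.

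Same-numbered libraries correlated at -0.34 to 0.36 over 13 pairs, 3 of them over 0.1. Libraries of different number correlated at -0.38 to 0.4 over 24 pairs, 8 of them over 0.1. Groups of 2 libraries give mirrored values, so these correlations cannot decide whether the numbers pair the samples. With a replicate block the counts were 2070, 1 and 5543.

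Of 160 genes examined singly, 84 lost the call in the 10 libraries, 98 without the outlying pair and 92 without IgG 4 Gy replicate 2, and no sign turned. Low genes are limited by depth.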

Other observations

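Of 7 platelet genes 2 rose and all 7 had a positive fold change, with a median of 0.90 on the log2 scale (0.91 with anti-PD-1 and 0.85 with IgG). Of 15 dendritic cell genes 2 rose and 2 fell (median -0.10). Of 20 cytokine and chemokine genes 3 rose and 1 fell (0.20), and of 17 immediate early genes 3 rose, with a median of 0.65 with anti-PD-1 and -0.29 with IgG. The difference between antibodies passed for 2 of these 17, against 9.08% of all genes. Of 15 clock genes 2 fell (0.02), and of 15 NRF2 targets 2 rose and 2 fell (-0.12). Over all genes tested 5.33% rose and 12.2% fell.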
